A study of Rattus norvegicus with 12 samples.

Results

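The smooth muscle contractile genes and the SRF and myocardin pair that drive them were followed in primary cardiomyocytes of the rat under SIN-1, short for 3-morpholinosydnonimine, which gives off peroxynitrite as it decays. The set was fixed by symbol as Acta2, Tagln, Cnn1, Myh11, Actg2, Myl9, Vcl, Srf and Myocd. Of these 9 genes, 7 had a probe on the array carrying that single symbol, out of 18166 genes measured, and each of the 7 had 1 such probe. Acta2 and Cnn1 had no probe named in the annotation used and are not analysed here.

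Wild-type cells were compared in 4 groups of 3 arrays each: control cells, and cells exposed to SIN-1 for 70 min, for 4 h and for 8 h. Total RNA was hybridised to one-colour Affymetrix whole-transcript arrays, and values are log2 intensities after RMA normalization. Cells were grown in DMEM/F12 with fetal bovine serum and horse serum. The labels do not state the serum during exposure, the SIN-1 dose, the vehicle or the culture time of the controls. The same 3 control arrays served all 3 exposure times. The design calls the arrays biological triplicates without saying whether the cultures were separate, so p-values measure only the spread between these arrays. In bulk RNA, fewer cells of a type and less RNA per cell cannot be told apart.

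Serum response factor (SRF) is a DNA-binding protein that recognises the CArG box, a short AT-rich element in the promoters of actin, contractile and adhesion genes. Myocardin, expressed in heart and smooth muscle, and the more widely expressed myocardin-related factors bind SRF and switch on the contractile programme, the related factors entering the nucleus when actin polymerises. KLF4 and the ternary complex factors work against myocardin on the same promoters, and SRF also controls its own gene.

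Most measured smooth muscle, pericyte and fibroblast markers lay above the median level of all genes, and most cardiomyocyte markers lay below it. Of 13 measured cardiomyocyte markers, only Tnnt2, Pln and Atp2a2 reached the median level of all genes (5.75), while the other 10, among them Myh6, Myh7, Actn2, Ryr2 and Ttn, had means from 3.57 to 5.57. Of 10 measured smooth muscle and pericyte markers 8 lay above that median, with Myh11 (5.685) and Rgs5 (5.67) below. Levels also varied among the other smooth muscle contractile genes described below. In control, Des, Mylk, Synm and Kcnmb1 averaged 5.19, 5.25, 5.37 and 5.747, below that median, and the rest of those measured lay above it. Of 11 fibroblast markers 9 lay above it, with Pdgfra (5.685) and Tcf21 (4.83) below. None of 5 endothelial and none of 8 macrophage and leukocyte markers lay above it. Probes differ in brightness, so these positions are approximate. The cells were labelled cardiomyocytes, and most defining cardiomyocyte markers were dim. Array medians ran from 4.98 to 5.12, and 70 min replicates 2 and 3 and 4 h replicate 3 had the highest, at 5.11, 5.12 and 5.09.

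The array levels of the 7 genes differed widely. Tagln stood at the 99.9th percentile of all gene means, Vcl at 99.3, Actg2 at 95.4, Myl9 at 94, Myocd at 84 and Srf at 81.6. Myh11, the myosin heavy chain that defines mature smooth muscle, stood at 48.9.

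The promoter of Srf itself holds the element that the protein binds, and it is shown because Srf is described below. The genes printed beside it are a selection and do not show how common the box is among genes of like time course. Of the genes nearest to Srf in pattern, Fblim1 is printed and holds a box, while Zyx and Pawr held none and are not printed. Fhl2 was not among those nearest genes. Each stretch is the 250 bases before the annotated start in the RefSeq table of build GRCr8, read 5′ to 3′ on the gene's strand, with CArG boxes (CC, then 6 bases that are A or T, then GG) in capitals. Srf lies at chr9:21923826-21924075 (+ strand), Fblim1 at chr5:159196817-159197066 (− strand), Fhl2 at chr9:52923327-52923576 (− strand) and Vcl at chr15:3404801-3405050 (− strand). Fhl2 had 2 windows, each with 1 box, and 1 of them is printed.
Srf: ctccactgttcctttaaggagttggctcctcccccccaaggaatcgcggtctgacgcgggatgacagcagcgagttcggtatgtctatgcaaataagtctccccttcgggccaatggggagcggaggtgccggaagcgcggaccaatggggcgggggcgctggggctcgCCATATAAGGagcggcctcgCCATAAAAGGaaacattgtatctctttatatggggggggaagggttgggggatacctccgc
Fblim1: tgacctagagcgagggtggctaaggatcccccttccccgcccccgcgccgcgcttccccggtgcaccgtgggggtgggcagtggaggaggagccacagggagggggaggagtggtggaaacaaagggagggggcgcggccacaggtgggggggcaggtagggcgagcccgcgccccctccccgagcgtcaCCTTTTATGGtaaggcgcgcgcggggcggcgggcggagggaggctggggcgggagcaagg
Fhl2: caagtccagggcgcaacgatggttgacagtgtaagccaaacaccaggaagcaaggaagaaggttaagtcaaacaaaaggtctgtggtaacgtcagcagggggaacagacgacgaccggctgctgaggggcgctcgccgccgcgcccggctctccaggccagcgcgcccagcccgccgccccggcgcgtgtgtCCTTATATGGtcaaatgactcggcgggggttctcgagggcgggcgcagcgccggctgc
Vcl: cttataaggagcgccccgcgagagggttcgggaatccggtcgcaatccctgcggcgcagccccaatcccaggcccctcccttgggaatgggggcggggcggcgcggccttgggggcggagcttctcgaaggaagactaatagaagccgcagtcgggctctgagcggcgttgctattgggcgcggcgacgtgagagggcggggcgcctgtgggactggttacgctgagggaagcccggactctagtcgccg

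Srf held 2 CArG boxes, at -81 to -72 and at -61 to -52 from the start, Fblim1 held 1 at -60 to -51 and Fhl2 held 1 at -58 to -49. Across the 33469 promoter windows of 27457 genes, 501 windows (1.5%) held a CArG box. That share is of windows, while the counts below are of genes with a match in any of their windows. More than 1 window was given for 3251 genes. Windows were given for 5 of the 9 genes (Acta2, Cnn1, Actg2, Vcl and Srf), and Srf was the only one of the 5 with a match. Of the related lists described below, 1 of 20 other smooth muscle contractile genes with a window held a box (Cnn2), 1 of 18 SRF and myocardin cofactors and competitors (Fhl2), 2 of 3 other actins (Acta1 and Actg1) and 2 of 21 adhesion and actin cytoskeleton genes (Fhl1 and Lima1). Cnn2 and Actg1 were not measured here, and Acta1, Fhl1 and Lima1 were not called against control at any time, with log2 differences from control at 4 h of 0.18, 0.00 and -0.21. The Vcl window held none, and it began with the 9 letters cttataagg, which are a CArG box without its first letter. Its first C, if present, would lie just outside the window. The Vcl window also held 1 match to the MCAT motif CATTCC (either strand, found in 12.06% of windows) and 4 to the GC box GGGCGG (either strand, 30.47% of windows). A match describes letters and not a bound site, and its absence says nothing about the factor.

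At 70 min of SIN-1, Vcl, Actg2 and Tagln rose and Myocd fell, while Srf, Myl9 and Myh11 did not pass the test. The call was an adjusted p under 0.05 by limma over all genes, with Benjamini-Hochberg adjustment. The 4 calls among 7 genes compare with 14.6% of all genes called at 70 min, of which 6.76% were higher (3 of the 7) and 7.81% lower (1 of the 7). The shares of all genes given here and below include many dimmer genes. Members other than Myh11 had standard errors from 0.039 to 0.093, beside a median of 0.131 over all genes. Smaller changes could therefore pass in them, and shares for genes of like level are not given. Higher genes made up 46.4% of all calls, 33.3% after each array was centred on its median and 55.6% when each array's median entered the model. At 4 h, Vcl was higher and Srf and Myocd were lower, 3 of 7 genes beside 3.85% of all genes (2.08% higher and 1.77% lower). At 8 h no member was called, beside 0.0275% of all genes (0.022% higher and 0.0055% lower), or 5 genes in all. At an unadjusted p under 0.05, 2 of the 7 members passed at 8 h (Actg2 and Myl9), beside 5.47% of all genes. The members' median log2 difference from control was 0.14 at 70 min, 0.08 at 4 h and 0.16 at 8 h, where the median over all genes was 0.03, 0.01 and 0.01. An F test over the 4 groups called Vcl, Srf, Myocd and Actg2, beside 15.3% of all genes, and Vcl ranked second among the 18166 genes in it.

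**Figure D1:**
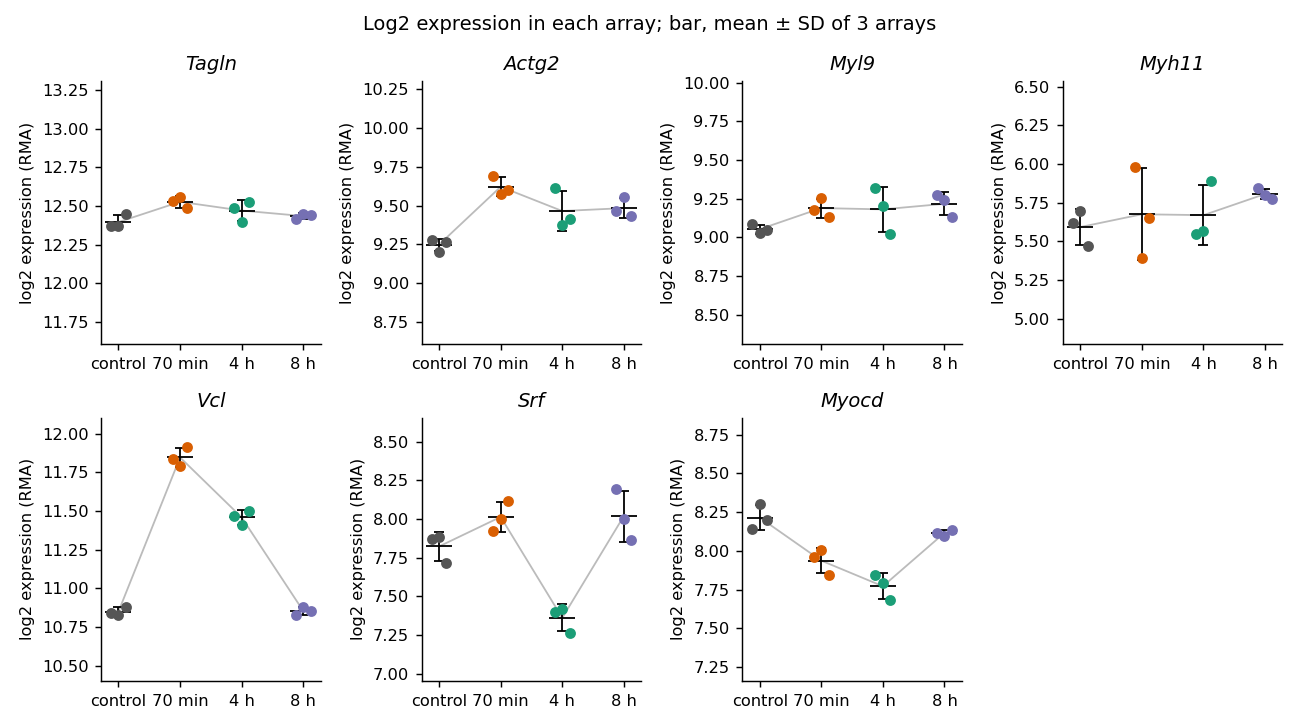
RMA log2 intensity of each of the 7 measured genes in every array, one panel per gene, with control, 70 min, 4 h and 8 h from left to right; points are arrays and bars are means ± SD of 3 arrays. Vcl is highest at 70 min and among the control values again at 8 h, and Srf is lowest at 4 h.

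Vcl encodes vinculin, the protein that couples integrin and cadherin adhesions to actin filaments. It read 10.84, 10.83 and 10.88 in the control arrays, 11.84, 11.79 and 11.91 at 70 min, 11.47, 11.41 and 11.50 at 4 h, and 10.83, 10.88 and 10.85 at 8 h. All 70 min arrays lay above all 4 h arrays, which lay above every control and 8 h array, and the last 2 groups overlapped. Vcl was 1.99-fold higher at 70 min than in control (log2 difference 0.996 ± 0.04, SE, 95% interval 0.90 to 1.09, limma adjusted p = 5.14e-10). At 4 h the difference from control was 0.61 ± 0.04 (1.52-fold, 0.52 to 0.70, adjusted p = 6.27e-07), and at 8 h it was 0.00, with an interval from -0.09 to 0.10. By size of change Vcl ranked 118th of all genes at 70 min. Between times, Vcl fell by 0.39 at 4 h against 70 min (adjusted p = 1.945e-05) and by 0.60 at 8 h against 4 h (adjusted p = 1.208e-06).

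Srf, the DNA-binding factor of the set, was lowest at 4 h. It read 7.87, 7.89 and 7.71 in control, 7.92, 8.00 and 8.12 at 70 min, 7.40, 7.42 and 7.26 at 4 h, and 8.19, 8.00 and 7.86 at 8 h. The 4 h arrays lay below all 9 others, and the 8 h range overlapped those of control and 70 min. At 4 h Srf fell by 0.46 ± 0.09 against control (1.38-fold lower, limma adjusted p = 0.00815). It fell by 0.65 at 4 h against 70 min (adjusted p = 0.000231) and was 0.66 higher at 8 h than at 4 h (adjusted p = 0.000487). The 70 min difference from control was 0.19 (interval -0.01 to 0.39, adjusted p = 0.196). Without control replicate 2 the 4 h call was lost (adjusted p = 0.0519).

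Myocd, which encodes the SRF coactivator myocardin, was lower at both early times. It read 8.14, 8.30 and 8.20 in control, 7.96, 8.00 and 7.85 at 70 min, 7.84, 7.79 and 7.68 at 4 h, and 8.11, 8.10 and 8.14 at 8 h. Every 4 h array lay below every 70 min array, and all of these lay below the control and 8 h arrays. The 8 h arrays lay just below the controls without overlap. Myocd fell by 0.28 ± 0.08 at 70 min (1.21-fold lower, limma adjusted p = 0.0192) and by 0.44 ± 0.08 at 4 h (1.36-fold lower, adjusted p = 0.0023), while the 4 h against 70 min difference of -0.17 was not called (adjusted p = 0.230). At 8 h it was -0.10 against control (interval -0.26 to 0.06) and 0.35 higher than at 4 h (adjusted p = 0.0158). The 70 min call was lost without the 3 arrays of highest median, which leaves 1 array at 70 min (adjusted p = 0.176), with array medians in the model (0.0510), or without control replicate 2 (0.0918), control replicate 3 (0.0516) or 70 min replicate 3 (0.0931), and the difference of 8 h from 4 h without 4 h replicate 3 (0.0682), 8 h replicate 2 (0.0637) or 8 h replicate 3 (0.0538).

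Actg2 encodes the gamma actin of smooth muscle filaments. It read 9.28, 9.20 and 9.26 in control, 9.69, 9.57 and 9.60 at 70 min, 9.61, 9.37 and 9.41 at 4 h, and 9.46, 9.55 and 9.43 at 8 h. All 9 exposed arrays lay above all 3 controls. The 70 min difference was 0.37 ± 0.07 (1.296-fold, interval 0.23 to 0.52, limma adjusted p = 0.000926). The 4 h difference of 0.22 (adjusted p = 0.0923) and the 8 h difference of 0.24 (adjusted p = 0.590, unadjusted p = 0.00272) were not called. Actin genes are close in sequence, so signal shared between them cannot be split.

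Tagln encodes transgelin, an actin-bundling protein of smooth muscle. It read 12.37, 12.37 and 12.45 in control, 12.53, 12.56 and 12.49 at 70 min, 12.49, 12.40 and 12.53 at 4 h, and 12.42, 12.45 and 12.44 at 8 h. The 70 min arrays lay above the controls, and the other times overlapped them. The 70 min difference was 0.13 ± 0.04 (1.095-fold, limma adjusted p = 0.0314), against 0.07 at 4 h and 0.04 at 8 h. By size of change Tagln ranked 10431st of all genes at 70 min. The call was lost without control replicate 1 (adjusted p = 0.123), control replicate 2 (0.112), 70 min replicate 1 (0.0635) or 70 min replicate 2 (0.131), and likewise without the variance trend (0.280), after centring (0.391), over all probes (0.0955), without the 3 arrays of highest median (0.188) and with array medians in the model (0.0884).

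Myl9, the regulatory light chain whose phosphorylation triggers contraction, and Myh11 were not called at any time. Myl9 averaged 9.19 ± 0.06 at 70 min, 9.18 ± 0.15 at 4 h and 9.22 ± 0.07 at 8 h, against 9.05 ± 0.03 in control (SD, n = 3 each). Its differences of 0.14, 0.13 and 0.16 had limma adjusted p of 0.238, 0.447 and 0.906. Myh11 averaged 5.68 ± 0.30 at 70 min, 5.67 ± 0.19 at 4 h and 5.81 ± 0.03 at 8 h, against 5.59 ± 0.12 in control. Its differences of 0.08, 0.08 and 0.21 carried a standard error of 0.14, the widest of the set.

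**Figure D2:**
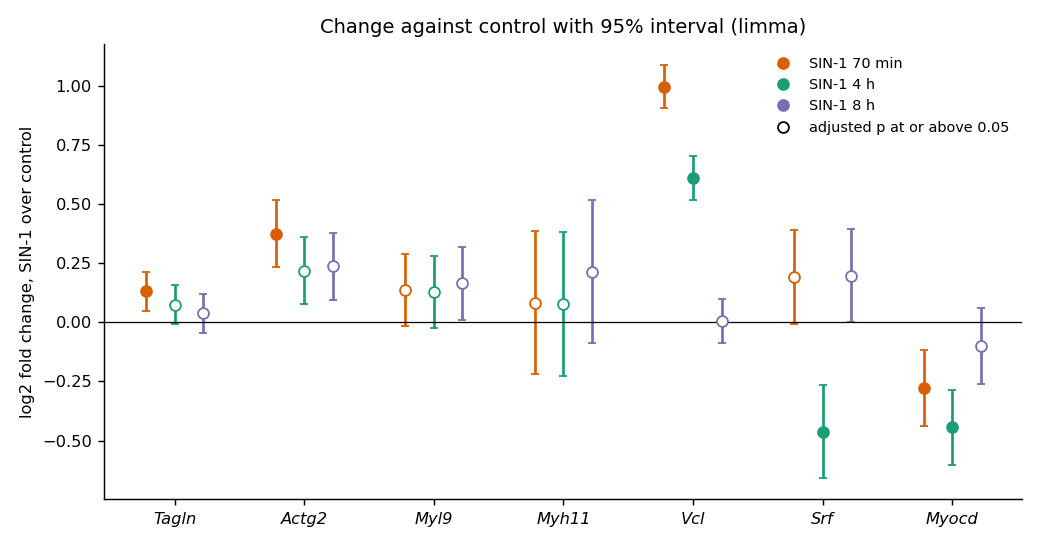
Log2 difference of each of the 7 genes from control at 70 min, 4 h and 8 h, with 95% intervals from limma and open points for differences not called. The Vcl points sit at 0.996, 0.61 and 0.00, and those of Myocd at -0.28, -0.44 and -0.10.

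The exposure times were also set against each other. At 4 h against 70 min, 2 of 7 members were lower (Vcl and Srf) and none higher, beside 7.63% of all genes (3.15% lower and 4.48% higher). At 8 h against 4 h, Srf and Myocd were higher and Vcl lower, 3 of 7 beside 3.51% of all genes (1.97% higher and 1.54% lower). At 8 h against 70 min Vcl alone was called, lower by 0.99 (limma adjusted p = 2.196e-10), beside 16% of all genes (9.56% higher and 6.43% lower). Higher genes made up 58.7% of all calls at 4 h against 70 min, 73.2% after arrays were centred on their medians and 46.6% when each array's median entered the model. At 8 h against 70 min they made up 59.8%, 77.0% after centring and 47.8% with the medians in the model, and at 8 h against 4 h 56.2%, 66.3% after centring and 49.0% with the medians in the model. Srf at 8 h differed by 0.01 from its 70 min level (adjusted p = 0.976). Actg2, the other gene called at 70 min with no call lost under any alternative there, was lower by 0.16 at 4 h and by 0.14 at 8 h than at 70 min, neither called (adjusted p = 0.195 and 0.190). Without 4 h replicate 1 the first of these was called (adjusted p = 0.0425). The Tagln, Myl9 and Myh11 differences between times ran from -0.09 to 0.14, with adjusted p from 0.127 to 0.989.

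The genes closest to the members in pattern were found by the root-mean-square difference over the 12 arrays after centring each gene on its mean. They were chosen for likeness and carry no test, and the 12 arrays share controls and normalization. Nearest to Vcl, whose own spread around its mean was 0.424, were Adam12 (0.070), Fen1 (0.093) and Ppp1r10 (0.100), where the median over all genes was 0.441. Nearest to Srf (spread 0.284) were Zyx (0.089), Fblim1 (0.103) and Pawr (0.126), beside a median of 0.329. Zyx and Fblim1 encode zyxin and migfilin, which sit at focal adhesions with vinculin. Zyx averaged 8.67 in control, 8.79 at 70 min, 8.17 at 4 h and 8.73 at 8 h, and Fblim1 9.06, 9.10, 8.52 and 9.20 in the same order. Nearest to Myocd (spread 0.180) were Notch3 (0.073), Pdgfrb (0.082) and Csnk1e (0.085), beside a median of 0.252. Notch3 and Pdgfrb are receptors of vascular smooth muscle cells and pericytes. Nearest to Actg2 (spread 0.149) were Arih2 (0.059), Cdc42bpb (0.062) and Atic (0.065), beside a median of 0.219. Of these 12 genes, 11 had a promoter window and Fblim1 alone had a CArG box in it. Zyx, Notch3 and Pdgfrb alone of the 12 are in the marker or related gene lists used here. The others, among them all those nearest to Vcl and to Actg2, are in none of these lists.

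**Figure D3:**
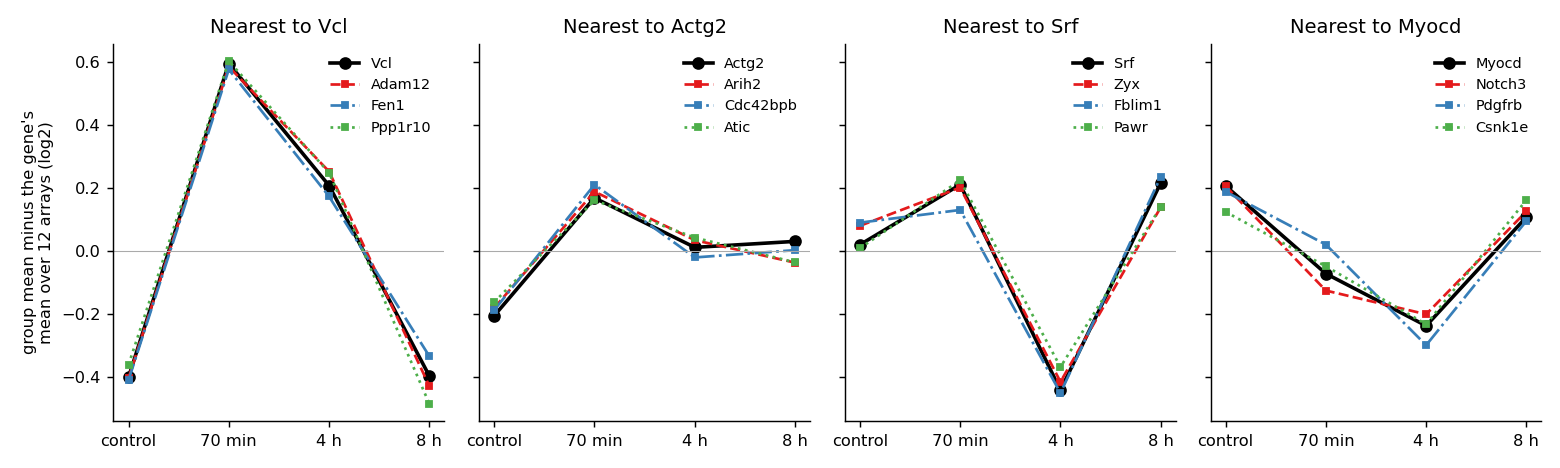
Group means of Vcl, Srf, Myocd and Actg2 and of the 3 genes nearest to each, as log2 difference from each gene's own mean over the 12 arrays, for control, 70 min, 4 h and 8 h. The genes were picked for likeness, so the overlap of the lines is not a test.

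Like the members, the related lists were chosen with earlier results of these data known, so their counts beside those of all genes carry no test. Among other smooth muscle contractile genes, 5 of 19 measured were higher and 1 was lower at 70 min, beside 6.76% and 7.81% of all genes, with a median of 0.09 where that of all genes was 0.03. At 4 h 2 were higher, beside 2.08% of all genes, and the medians were -0.03 for the list and 0.01 for all genes. Csrp1, a LIM protein that bridges SRF and GATA factors, was higher by 0.47 (limma adjusted p = 3.59e-06) and Tagln2, a transgelin relative, by 0.44 (7.83e-05). Synpo2, an actin-bundling Z-disc protein, fell by 0.64 (0.000535). At 4 h the differences were 0.24 for Csrp1 (0.0086) and 0.30 for Tagln2 (0.00814). Csrp1 at 4 h lost its call without control replicate 2 (0.0586), and both did without the mean trend in the variance prior (0.161 and 0.124). Csrp1 also lost it after centring (0.0739), and Tagln2 over all probes (0.0531) and without the 3 arrays of highest median (0.0717). The list had 3 calls in place of 6 at 70 min without control replicate 2, without 70 min replicate 3, after centring, over all probes or without the trend, and 1 in place of 2 at 4 h without control replicate 2. Other calls that depended on a single array are not named.

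Among SRF and myocardin cofactors and competitors, 5 of 20 measured were higher and 2 lower at 70 min, beside 6.76% and 7.81% of all genes, and 3 were lower at 4 h, beside 1.77%. The list's medians were 0.07 at 70 min and -0.11 at 4 h, where those of all genes were 0.03 and 0.01. Klf4, the competitor of myocardin, averaged 7.92 ± 0.03 at 70 min against 6.90 ± 0.11 in control, 1.02 higher (limma adjusted p = 1.99e-06), and at 4 h it was 0.22 higher, not called. Mef2c, a muscle transcription factor, was 0.51 higher at 70 min (0.00183). Fhl2, a LIM cofactor of SRF whose promoter is printed above, was 0.37 higher at 70 min (0.00351) and fell by 0.73 at 4 h against control (4.06e-05). Mrtfa, which senses actin polymerisation, differed by 0.07, -0.12 and 0.13 at the 3 times, none called. The 70 min call of Fhl2 was lost after arrays were centred on their medians (0.0542), and that of Mef2c without the 3 arrays of highest median (0.0861). The list had 4 calls at 70 min without control replicate 1, control replicate 2 or 70 min replicate 3, and 3 over all probes. At 4 h it had 1 without any single control array, 4 h replicate 2 or 3, or 8 h replicate 2. It also had 1 at 4 h without the variance trend, after centring, over all probes or with the compared groups alone.

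Of 2 measured other actins, Acta1, the skeletal muscle actin, was 0.28 higher at 70 min (limma adjusted p = 0.0937) and Actb 0.05 (0.437), neither called. Without control replicate 2, Acta1 was called (0.0211).

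Of 22 measured adhesion and actin cytoskeleton genes, 12 were higher and 2 lower at 70 min, beside 6.76% and 7.81% of all genes, with a median of 0.22 where that of all genes was 0.03. This list too was chosen with earlier results known, and it includes Zyx, given above as nearest to Srf. At 4 h 5 were higher and 3 lower, beside 2.08% and 1.77% of all genes, with a median of 0.08 against 0.01 for all genes. The actin cross-linkers Actn1 and Actn4 were each 0.53 higher at 70 min (limma adjusted p = 3.04e-07 for both), Wdr1, a cofilin helper, was 0.52 higher (2.08e-06) and Ilk, the integrin-linked kinase, 0.49 higher (6.23e-06). Against these, the matrix proteins Ccn1 and Ccn2, targets of SRF and YAP, fell by 1.21 (9.82e-10) and 0.21 (0.0048). At 4 h Actn1 was 0.36 higher (8.87e-05), Wdr1 0.32 (0.0012) and Actn4 0.28 (0.000969), while Ccn1 fell by 0.56 (2.28e-05), Zyx by 0.50 (0.000572) and Ccn2 by 0.25 (0.00381). Egr1 and Ankrd1 are not in this list and are not part of its counts. Egr1, an immediate early target of SRF, fell by 1.38 at 70 min and 1.36 at 4 h. Ankrd1, a cardiac ankyrin repeat protein, fell by 0.41 and 1.37 at those times. Without the variance trend the 4 h calls of Wdr1 (0.0533), Actn4 (0.0890) and Ccn2 (0.127) were lost, as was that of Ccn2 at 70 min (0.0944), and the list had 3 calls at 4 h and 9 at 70 min. After centring it had 8 calls at 70 min and 5 at 4 h, and Ccn2 lost its call at 4 h (0.0761). It had 7 at 70 min without the 3 arrays of highest median, where the 70 min calls of Ccn2 (0.103) and Ankrd1 (0.0757) were lost. None of these 4 lists had a call at 8 h, apart from 1 contractile gene under array weights.

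**Figure D4:**
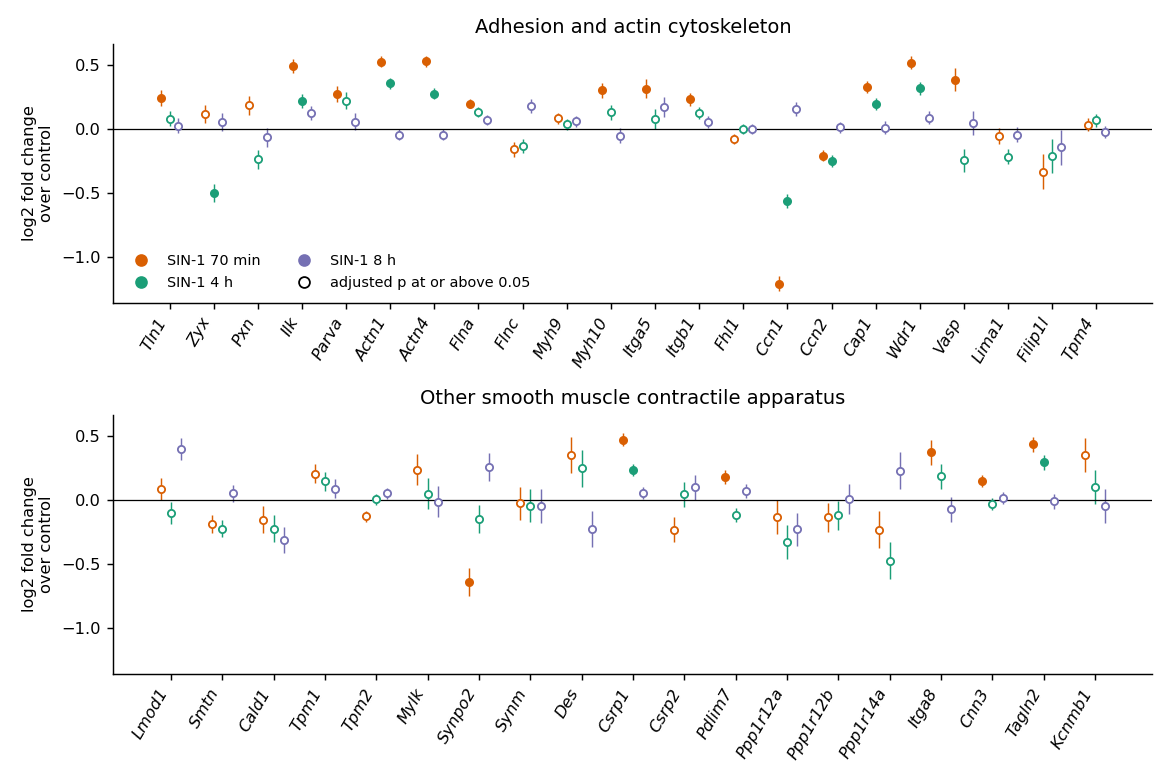
Log2 difference from control ± SE at 70 min, 4 h and 8 h for every measured gene of the adhesion and actin cytoskeleton list (top) and of the other smooth muscle contractile list (bottom), with open points for differences not called. In the top panel Actn1 and Actn4 stand at 0.53 at 70 min and Ccn1 at -1.21, and all points at 8 h are open.

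Marker levels were followed over the same arrays. The mean of the 11 fibroblast markers ran from 8.63 to 8.75 at 70 min, 8.83 to 8.95 at 4 h and 9.005 to 9.13 at 8 h, against 9.002 to 9.06 in control. The 70 min and 4 h ranges lay wholly below control. Of the 11, 5 were called lower at 70 min and 1 at 4 h, beside 7.81% and 1.77% of all genes. The 10 smooth muscle and pericyte markers ran from 7.88 to 7.97 at 70 min, 7.80 to 7.88 at 4 h and 7.99 to 8.05 at 8 h, against 7.90 to 7.96 in control. The 4 h range lay wholly below control and the 8 h range wholly above it. These markers include Tagln and Myh11, and Notch3 and Pdgfrb, which were described above as nearest to Myocd. The calls among them were of those same genes, Tagln higher and Notch3 lower at 70 min and Notch3 and Pdgfrb lower at 4 h, so they are no separate measurement. Over all genes, 6.76% were higher and 7.81% lower at 70 min, and 1.77% lower at 4 h. Both Notch3 calls were lost without any single control array (limma adjusted p from 0.0564 to 0.0881 at 70 min and from 0.0596 to 0.0862 at 4 h). They were also lost without 70 min replicate 3 and 4 h replicate 2 or 3 respectively, without the variance trend and over all probes. The 13 cardiomyocyte markers ran from 5.21 to 5.49 at 70 min against 5.19 to 5.31 in control, with 1 higher, beside 6.76% of all genes. Endothelial markers had 1 of 5 lower at 70 min, beside 7.81% of all genes. Macrophage markers had 0 of 8 called then, beside 14.6% of all genes. The part of these marker shifts in the results above was not tested.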

How the data were processed

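RNA from 12 samples of primary rat cardiomyocytes was measured on one-colour Affymetrix arrays. Per the submitters' processing notes, RMA in the Affymetrix Expression Console (version 1.3.1.187) produced the values, and 36685 probes were deposited. The deposited values were taken as log2 intensities from their range, since no unit is stated. RMA equalises the distributions of arrays and compresses folds near background. The platform annotation listed 19086 probes, of which 18511 carried 1 symbol and 575 several. For each of 18166 genes the probe with the highest mean was kept (291 genes had more than 1). Precision is set by 3 arrays a group: a typical (median) standard error was 0.131, with 8 residual degrees of freedom.

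Groups came from the labels. limma 3.58.1 in R 4.3.3 fitted 1 model to all 4 groups, with moderated variances following the mean level, and p-values were adjusted by Benjamini-Hochberg over all genes at a threshold of 0.05. The script was tested on simulated data. Figures were drawn with matplotlib 3.10.9. The members and lists were chosen with earlier results of these data known. The text names all members, up to 4 called genes per list, direction and comparison with control with the largest change, certain genes always, and the 3 genes with the lowest root-mean-square difference from each member called by the F test. List genes whose call was lost without 1 array were left unnamed there, Csrp1 excepted, a choice made after values were seen. Alternatives were a replicate block, no variance trend, robust variances, array weights, further quantile normalization, centring, brighter genes alone, all probes, the mean of a gene's probes, the compared groups alone and each array left out; those without the 3 arrays of highest median and with array medians in the model were chosen after seeing the data. 1 further list is not reported here. Promoters came from RefSeq build GRCr8.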

Additional observations from a re-analysis of the deposited data

Results flagged for a closer look

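Members whose difference from control changed between exposure times are given here, each by the limma contrast of those times over all genes. Vcl differed by -0.39 at 4 h against 70 min, by -0.60 at 8 h against 4 h and by -0.99 at 8 h against 70 min (adjusted p = 1.945e-05, 1.208e-06 and 2.196e-10), and in each contrast all 3 arrays of the later time lay below all 3 of the earlier. These calls held under all 24 alternatives.

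Srf differed by -0.65 at 4 h against 70 min (adjusted p = 0.000231) and was 0.66 higher at 8 h than at 4 h (adjusted p = 0.000487), with no overlap of arrays in either contrast. Without the 3 arrays of highest median, an alternative chosen after seeing the data, the first was lost (adjusted p = 0.0934).

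Myocd was 0.35 higher at 8 h than at 4 h (adjusted p = 0.0158), with all 3 arrays at 8 h above all 3 at 4 h. That call was lost without the variance trend (0.0569), with arrays centred (0.0735), with the compared groups alone (0.0581), without the 3 arrays of highest median (0.0631), and without 4 h replicate 3 (0.0682), 8 h replicate 2 (0.0637) or 8 h replicate 3 (0.0538).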

How the results depend on the processing

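Of 1002 member values recomputed under the alternatives, 23 lost their call, 2 gained one and no called value changed sign, while 32 uncalled values did, the largest of them 0.131. The 70 min Vcl and Actg2 calls and the 4 h Vcl and Myocd calls held under all 24 alternatives, with ranges of 0.94 to 1.03, 0.32 to 0.44, 0.59 to 0.63 and -0.48 to -0.40. A pair of settings was chosen after seeing the data. Without the 3 arrays of highest median, which leaves 1 array at 70 min assumed to vary like the others, 2 members were called at 70 min and 1 at 4 h against 70 min. With the array median as a covariate, 2 were called at 70 min. After further quantile normalization 2 were called at 8 h against 70 min, Tagln being the added one. Leaving out each array in turn called 2 to 4 members at 70 min, 2 to 3 at 4 h, 0 to 0 at 8 h, 2 to 3 at 4 h against 70 min, 2 to 3 at 8 h against 4 h, 1 to 1 at 8 h against 70 min and 4 to 4 by the F test. The cause of these changes was not tested.

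Deviations of same-numbered arrays from their group means had r from -0.322 to 0.24. Of the 12 arrays, 6 were best matched in other groups by one of their own number. The labels state no pairing, so the numbers were not taken as pairs. A replicate block left the member counts at 4, 3, 0, 2, 3, 1 and 4 in the same order, and the count of all genes at 8 h was 9 with it. Counts over all genes moved by more than 1.5 times in places: 2647 at 70 min became 1751 without control replicate 1 and 1046 without the 3 arrays, 699 at 4 h became 339 without the variance trend, 341 when centred and 373 to 444 without a single control or 4 h replicate 1, and 5 at 8 h became 2 to 37. Between times, 1386 became as low as 318, 637 as low as 299, 2904 as low as 1181, and 2775 by the F test became 1205. Genes near background are limited by signal, and Myh11 is the dimmest member.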
